A study of Saccharomyces cerevisiae with 12 samples.

Results

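Expression without Snf2, the ATPase of the yeast SWI/SNF complex, was set against that of WT cells across every gene of the deposited expression table. All 5935 genes of the table were taken, since the comparison was defined by its libraries and not by any measured value, and 5820 of them passed a filter on low values and were tested (115 did not). The comparison used 3 libraries of a snf2 deletion strain and 3 of a WT strain, 6 of the 12 libraries of the series, whose other groups are strains without SNF5 or SWP82 (3 libraries each). Per the labels, every strain is a MATa haploid of the laboratory background BY4741 with the alleles his3delta_1, leu2delta_0, met15delta_0 and ura3delta_0. In the snf2 deletion strain the gene is replaced by the drug-resistance cassette kanMX4 (snf2delta_::kanMX4), and Snf6, another subunit, carries a tag by its label (snf6-2FLAG-9 amino acids-LEU2). In the WT strain Snf2 itself carries that tag (snf2-2FLAG-9 amino acids-LEU2), so the position of the tag goes with the deletion and the effects of these differences cannot be told apart. The snf5 and swp82 deletions are likewise kanMX4 replacements with the tag on Snf6. Cells grew at 30 °C to log phase, at an OD600 of about 0.75 to 1.0, in what the labels call independent biological triplicates; the medium is not given in the labels, nor is whether each deletion was made more than once. RNA was sequenced from stranded mRNA libraries.

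SWI/SNF uses the energy of ATP to slide and evict nucleosomes, the units in which DNA is wrapped around histones, and so changes which promoters transcription factors can reach. Snf2 is the subunit that hydrolyses ATP, and the other subunits hold the complex together and bring it to its targets. The gene names come from mutants that could not ferment sucrose (SNF) or could not switch mating type (SWI), and the complex is known for roles at inducible genes of sugar, phosphate and amino acid metabolism, cell wall and mating.

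Values are given as scaled CPM, CPM divided by a library factor that evens out differences in composition (TMM), as the authors deposited them. Each value was a whole multiple of what 1 read is worth, 0.0822 to 0.0927 scaled CPM in the snf2 deletion libraries and 0.0801 to 0.103 in the WT libraries. The depths recovered from these steps were 11375192, 10027008 and 10424910 reads in the snf2 deletion libraries, against 11902162, 12875057 and 10064753 in the WT libraries. Across genes, log2 values of replicates correlated at 0.996 to 0.997 within the snf2 deletion and 0.995 to 0.998 within WT. The share of reads in the top 10 genes was 8.07 to 8.85% in the snf2 deletion libraries and 10.6 to 11.2% in the WT libraries. Levels are means ± SD over 3 libraries, and log2 fold changes (snf2 deletion over WT) come with their SE, after adding 1 to each value before taking logs, which understates the change of genes with few reads. A gene was called higher or lower at a limma p below 0.05 after Benjamini-Hochberg adjustment over all 5820 genes. The SE and p-values set each difference against a spread between replicates that was estimated over all 12 libraries of the series. They speak for these libraries only.

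SNF2 (YOR290C, chromosome XV, 855147 to 860258 in build R64) checked the labels first. It stood at 0.493, 0.742 and 0.712 scaled CPM in the snf2 deletion libraries, against 103, 96.96 and 92.7 in the WT libraries (-5.90 ± 0.08, limma adjusted p = 3.29e-12). The 22 reads left in the deletion amounted to 0.665% of the WT level (95% exact interval of counting error, 0.417 to 1.01%). Neither chromosomal neighbour was called: YOR289W had a fold change of 0.31 ± 0.28 (adjusted p = 0.442) and YPK9, a vacuolar ATPase gene, one of 0.23 ± 0.13 (0.215). LEU2, which encodes isopropylmalate dehydrogenase of leucine synthesis, had 0 reads in all 3 snf2 deletion libraries, against 56.98, 56.3 and 55.3 scaled CPM in the WT libraries. Taking 3 reads in the 3 libraries together as the floor, the gene was at least 639-fold lower in the deletion. The label gives the deletion strain a tag linked to LEU2, so the libraries labelled snf2 deletion go against this label, and LEU2 goes with the deletion in every comparison with WT that follows.

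In all, 1612 genes were called, 27.7% of those tested: 792 higher (13.6%) and 820 lower (14.1%) in the snf2 deletion than in WT. With total-count scaling in place of the deposited factors, which moved the median log2 fold change of all genes to 0.13, the split was 1837 higher and 468 lower. Changes of at least 2-fold were seen in 121 genes called higher and 122 called lower. Of these 243 genes, 237 kept the call when any 1 of the 6 libraries was left out; of all 1612 called genes 1010 did. The plot of fold change against level shows both kinds of change over the whole range of levels, with a tilt. Among the tenth of genes with the highest mean level over all 12 libraries (326 to 14960 scaled CPM) 229 of 582 were called lower and 47 higher, with a median of -0.18, and the 127 cytosolic ribosomal protein genes in it made up 116 of the lower ones. Among the tenth with the lowest levels 151 of 582 were called higher and 49 lower.

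**Figure D1:**
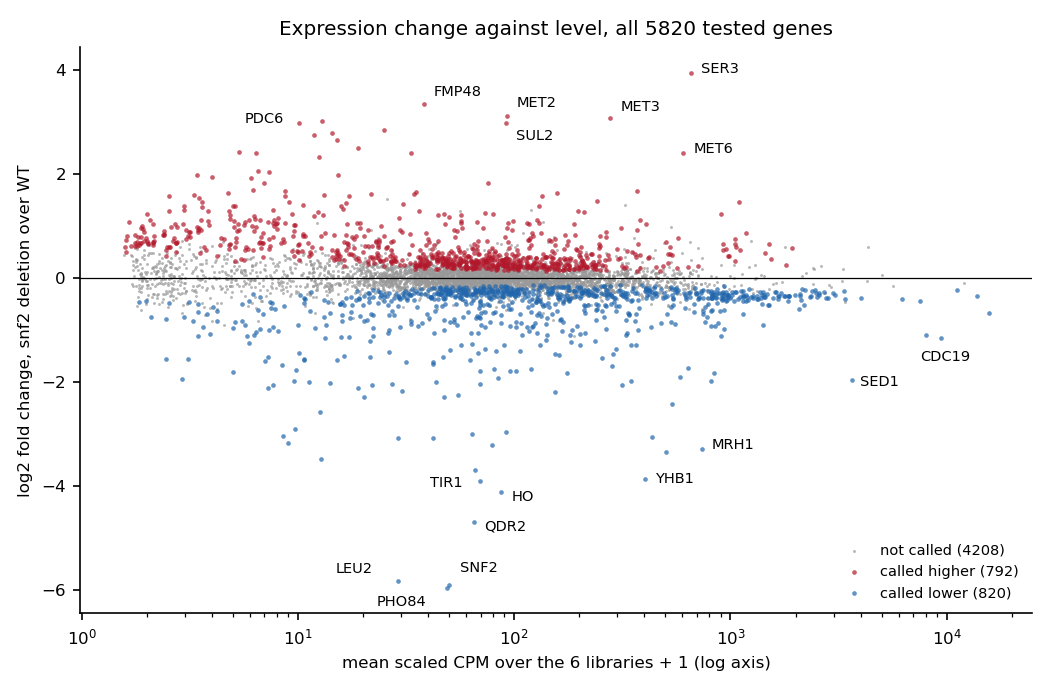
Log2 fold change of the snf2 deletion over WT (vertical axis) against the mean level over the 6 libraries plus 1 (horizontal log axis, scaled CPM) for the 5820 tested genes. Red points are the 792 genes called higher, blue points the 820 called lower and grey points the rest; SER3 lies highest at 3.94, and PHO84, SNF2 and LEU2 lie lowest on this scale.

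The 15 genes with the highest fold changes, among those called, changed at least 2-fold and without overlap between the groups, ran from SER3 (3.94) to MET6 (2.40). Among them were genes of serine synthesis (SER3), sulfur and methionine (MET2, MET3, SUL2, MET28 and MET6), ethanol and pyruvate (PDC6 and ADH2), mitochondria (FMP48 and the cardiolipin phospholipase gene CLD1) and proline uptake (PUT4). FMP48, a kinase-like mitochondrial protein gene, had 87.9, 57.2 and 60.2 scaled CPM in the snf2 deletion libraries and 7.15, 4.73 and 5.46 in the WT libraries (3.35 ± 0.31, limma adjusted p = 1.95e-05). CLD1 had 45.9, 42.7 and 40.8 in the snf2 deletion libraries and 5.88, 5.61 and 4.02 in the WT libraries (2.85 ± 0.14, adjusted p = 1.03e-07). For both genes the lowest deletion library lay several times above the highest WT library, where the selection had already asked for no overlap. The remaining 4 were RCK1, a protein kinase gene (2.65), CSS1 (2.75), whose reads are uncertain because near-identical copies exist, and the little-studied YMR244W (2.42) and YPL025C (3.01).

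The 15 with the lowest, by the same rule, ran from PHO84 (-5.96) to YRO2 (-3.07). QDR2, a drug and cation transporter of the plasma membrane, had 3.78, 3.71 and 4.10 scaled CPM in the snf2 deletion libraries and 128, 128 and 117 in the WT libraries (-4.69 ± 0.11, limma adjusted p = 2.49e-10). MRH1, an abundant plasma membrane protein, had 142, 126 and 136 in the snf2 deletion libraries and 1307, 1411 and 1284 in the WT libraries (-3.30 ± 0.08). ZEO1, a peripheral membrane protein linked to the cell integrity pathway, had 76.01, 95.1 and 94.6 in the snf2 deletion libraries and 848, 936 and 953 in the WT libraries (-3.36 ± 0.11). All 15 kept their calls without any 1 library. The set further held the flavohemoglobin gene YHB1, which detoxifies nitric oxide (-3.86), the drug transporter gene AZR1 (-3.48), NDJ1, a meiotic telomere protein gene (-3.17), SRD1, linked to processing of ribosomal RNA (-3.09), and YGR035C (-3.69).

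**Figure D2:**
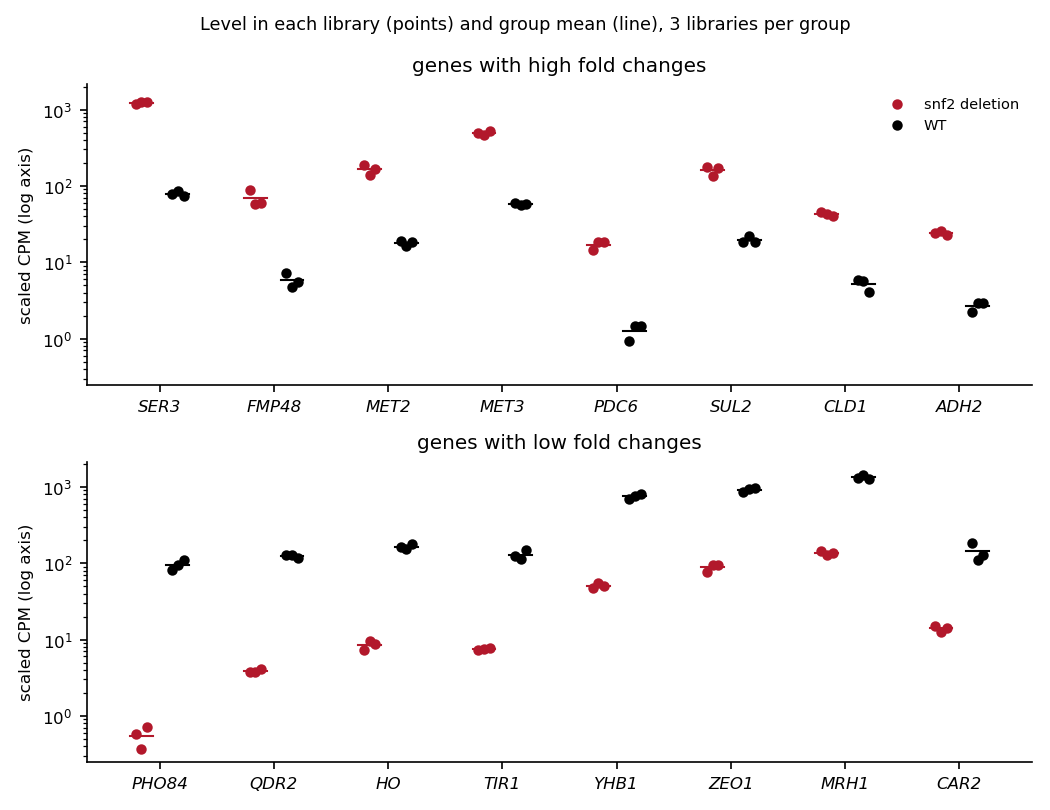
Level of 8 of the genes with the highest (top) and 8 of those with the lowest (bottom) fold changes in each library, in scaled CPM on a log axis; red points are the 3 snf2 deletion libraries, black points the 3 WT libraries and lines the group means. In each of the 16 genes the 3 points of a group lie apart from those of the other group. This separation was set by the selection, which took only genes without overlap between the groups, and is no separate result.

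SER3, which encodes phosphoglycerate dehydrogenase, the first enzyme of serine synthesis from glycolytic intermediates, rose more than any other tested gene. Its level was 1179.8, 1264 and 1252 scaled CPM in the snf2 deletion libraries, against 78.6, 84.9 and 74.02 in the WT libraries (3.94 ± 0.08, limma adjusted p = 6.15e-11), with little spread in either group. SER3 (YER081W, chromosome V, 322686 to 324095) is a textbook case of transcription interfering with a promoter: the non-coding RNA SRG1 is made across the SER3 promoter and keeps the gene down, and SWI/SNF is known to act at SRG1. In R64, SRG1 runs from 322212 to 322762 on the same strand and shares 77 bases with SER3, so a small part of the SER3 reads could be its own; SRG1 was not analysed here. The window from 400 to 101 bases before the start of SER3, chrV:322286-322585 (plus strand), lies wholly within SRG1 and is shown because of that.
SER3: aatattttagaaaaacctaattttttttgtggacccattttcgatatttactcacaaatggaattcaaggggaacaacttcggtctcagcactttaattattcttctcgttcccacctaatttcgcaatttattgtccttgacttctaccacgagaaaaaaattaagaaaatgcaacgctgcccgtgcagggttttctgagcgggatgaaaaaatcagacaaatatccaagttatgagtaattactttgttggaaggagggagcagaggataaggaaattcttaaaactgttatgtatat

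The paralogous enzyme gene SER33 rose less, to 191 ± 5.10 scaled CPM in the snf2 deletion, against 114 ± 1.94 in WT (0.74 ± 0.10). Of the 8 genes of serine synthesis and use, 2 were called higher and 2 lower, with a median log2 fold change of -0.01, or 0.13 with total-count scaling. The lower ones were CHA1, the serine and threonine deaminase gene induced by these amino acids (-0.94 ± 0.18), and GLY1, the threonine aldolase gene that supplies glycine (-0.63 ± 0.06). Genes that break glycine down fell. GCV1, a subunit of the mitochondrial glycine cleavage complex, had 17.2, 17.2 and 19.4 scaled CPM in the snf2 deletion libraries and 97.9, 86.6 and 84.4 in the WT libraries (-2.26 ± 0.10, limma adjusted p = 4.34e-08), and GCV2 and GCV3, for 2 further subunits, fell by 1.44 ± 0.11 and 1.47 ± 0.08. Of 9 genes of glycine cleavage and one-carbon metabolism, 5 were called lower and 0 higher (median -0.55, against -0.00 for all genes tested).

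Sulfur genes rose along most of the route from sulfate to methionine. Of 10 genes of sulfate uptake and reduction 9 were called higher and 0 lower, with a median log2 fold change of 1.33. SUL2, the main sulfate permease, had 175, 136 and 174 scaled CPM in the snf2 deletion libraries, against 18.5, 21.8 and 18.7 in the WT libraries (2.97 ± 0.14, limma adjusted p = 7.41e-08). MET3, ATP sulfurylase, the enzyme that activates sulfate, had 493, 469.8 and 527 in the snf2 deletion libraries and 59.4, 56.01 and 57.9 in the WT libraries (3.08 ± 0.09, adjusted p = 1.44e-09). Each deletion library lay several times above every WT library for both genes. The next steps were also higher, from the adenylylsulfate kinase gene MET14 (1.82 ± 0.14) to MET10, a sulfite reductase subunit (1.63 ± 0.11). MET2, homoserine acetyltransferase, which makes the acceptor for reduced sulfur, had 165 ± 24.2 in the snf2 deletion and 17.96 ± 1.51 in WT (3.12 ± 0.19). MET6, methionine synthase, had 1084, 984 and 986 in the snf2 deletion libraries and 208, 176 and 191 in the WT libraries (2.40 ± 0.17).

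Of 17 genes of methionine, cysteine and S-adenosylmethionine synthesis, 7 were called higher and 3 lower, with a median log2 fold change of -0.03, or 0.11 with total-count scaling. SAM2, one of the genes for S-adenosylmethionine synthetase, rose by 0.83 ± 0.10 and MET13, methylenetetrahydrofolate reductase, by 1.24 ± 0.15. CYS4, cystathionine beta-synthase, fell to 581 ± 20.8 scaled CPM, against 1108 ± 46.01 in WT (-0.93 ± 0.15); the others called lower were SAM4 and HOM3. Uptake genes moved apart as well: MMP1, a permease for S-methylmethionine, was higher (1.05 ± 0.24) and SAM3, a permease for S-adenosylmethionine, lower (-1.06 ± 0.23). Among 6 sulfur regulators 3 were higher and 1 lower. MET28, a cofactor that steadies Cbf1 and Met4 on DNA, had 60.1, 46.6 and 58.3 in the snf2 deletion libraries and 10.4, 7.69 and 10.6 in the WT libraries (2.41 ± 0.17). MET32, one of the zinc-finger factors that bring Met4 to DNA, rose by 1.26 ± 0.18, and MET30, the ubiquitin ligase subunit that restrains Met4, by 0.63 ± 0.10. CBF1 itself was lower by a small amount (-0.21 ± 0.04).

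Promoters of sulfur genes hold 2 kinds of site known from earlier work: CACGTG, bound by Cbf1 (and, at phosphate genes, by Pho4), and CTGTGG, bound by Met31 and Met32. Both strands of the window from 400 to 101 bases before each gene's start were read from R64, in 5626 tested genes. CACGTG was in 4.59% of all windows and in 9 of 10 windows of the sulfate uptake and reduction genes; CTGTGG was in 8.48% and in 3 of 10. Over the sulfur lists together, CACGTG was in 71.4% of the 21 members called higher and 31.2% of the 16 others, and CTGTGG in 52.4% and 43.8%. A match is a description of these letters and not a measured binding site. The windows of MET3 (chrX:455839-456138, plus strand), SUL2 (chrXII:323144-323443, plus strand) and MET28 (chrIX:384220-384519, minus strand) are shown because these genes rose together and hold both kinds of letters, which stand in capitals (CTGTGG also as its reverse complement, CCACAG).
MET3: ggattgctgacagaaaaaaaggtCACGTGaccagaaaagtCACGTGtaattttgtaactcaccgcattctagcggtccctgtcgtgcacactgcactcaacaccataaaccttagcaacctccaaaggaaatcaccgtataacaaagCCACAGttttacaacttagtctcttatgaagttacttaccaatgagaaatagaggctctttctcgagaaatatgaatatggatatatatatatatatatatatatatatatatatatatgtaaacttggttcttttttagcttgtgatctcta
SUL2: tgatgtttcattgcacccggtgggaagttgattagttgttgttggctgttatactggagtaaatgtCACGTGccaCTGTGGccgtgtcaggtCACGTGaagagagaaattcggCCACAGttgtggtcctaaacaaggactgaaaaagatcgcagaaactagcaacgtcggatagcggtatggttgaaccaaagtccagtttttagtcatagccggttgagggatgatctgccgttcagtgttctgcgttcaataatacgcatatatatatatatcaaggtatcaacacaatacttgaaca
MET28: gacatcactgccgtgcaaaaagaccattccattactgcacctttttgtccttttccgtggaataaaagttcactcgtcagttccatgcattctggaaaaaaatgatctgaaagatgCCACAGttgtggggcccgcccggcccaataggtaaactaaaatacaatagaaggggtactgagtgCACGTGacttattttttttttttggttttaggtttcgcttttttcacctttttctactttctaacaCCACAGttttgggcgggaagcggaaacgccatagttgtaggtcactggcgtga

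**Figure D3:**
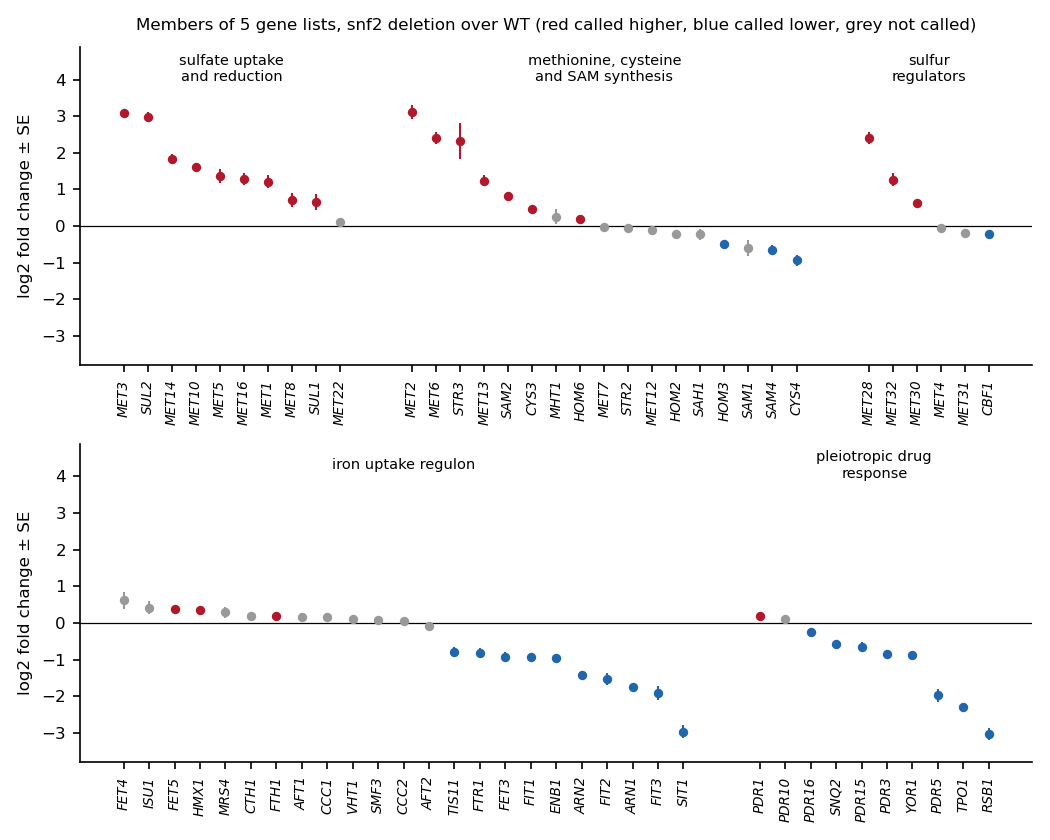
Log2 fold change ± SE of the snf2 deletion over WT for each tested member of 5 gene lists; red points are members called higher, blue points members called lower and grey points members not called. All 10 sulfate genes lie above 0 (9 called higher), the iron genes reach down to SIT1 at -2.97, and 8 of 10 drug response genes lie below 0 and are called.

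PHO84, the high-affinity phosphate transporter and a known target of SWI/SNF, had the lowest fitted log2 fold change on the log2(value + 1) scale; with 0 reads in the deletion, LEU2 was lower still by the floor given above. It had 0.575, 0.371 and 0.712 scaled CPM in the snf2 deletion libraries, against 81.6, 95.8 and 109.8 in the WT libraries (-5.96 ± 0.18, limma adjusted p = 2.14e-09). The gene (YML123C, chromosome XIII, 24037 to 25800) lies wholly within an antisense non-coding RNA, YNCM0001W, on the other strand; the library kit keeps strand, but whether counting used it is not given in the sources used here. PHO3, an acid phosphatase gene, fell to 138 ± 9.66, against 553 ± 37.8 in WT (-1.99 ± 0.14), and PHO12, a further acid phosphatase gene with the near-identical copy PHO11, fell by 1.17 ± 0.16; PHO11 was called lower too, a call lost without any 1 replicate of the snf2 deletion or any 1 replicate of WT (highest adjusted p 0.145). PHO5, the acid phosphatase that phosphate starvation induces, was one of the exceptions, with 28.8, 29.8 and 26.2 in the snf2 deletion libraries and 15.3, 17.5 and 18.8 in the WT libraries (0.69 ± 0.11, adjusted p = 0.000851). In all, 4 of 12 genes of phosphate uptake and scavenging were called lower and 2 higher, with a median log2 fold change of -0.03, or 0.11 with total-count scaling. Of 16 genes of polyphosphate and phosphate signalling 4 were called lower and 1 higher, among them VTC3 and VTC5 of the polyphosphate polymerase (-0.31 and -0.87) and PHO81, the inhibitor of the phosphate-responsive kinase (-0.30). The share called, 31.25%, was near the 27.7% of all genes. The median of this list was -0.09, or 0.05 with total-count scaling. CACGTG was in the windows of 7 of the 12 uptake genes.

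The iron uptake genes that fell were led by those for siderophores, iron chelators that yeast takes up from other microbes. SIT1, a siderophore transporter, had 16.4, 21.4 and 21.6 scaled CPM in the snf2 deletion libraries, against 157, 149.9 and 177 in the WT libraries (-2.97 ± 0.17, limma adjusted p = 3.99e-07). ARN1, another such transporter, had 35.2, 35.3 and 36.1 in the snf2 deletion libraries and 116, 112 and 141 in the WT libraries (-1.76 ± 0.09), and FIT3, a cell wall mannoprotein that holds siderophores, 218, 205 and 316 in the snf2 deletion libraries and 913, 735 and 1132 in the WT libraries (-1.91 ± 0.19). No deletion library overlapped a WT library in these genes, which held for 52.9% of all tested genes. The reductive system, made of the multicopper oxidase FET3 (-0.92 ± 0.14) and the permease FTR1 (-0.81 ± 0.14), fell less. Of the 23 genes of the iron uptake list 10 were called lower and 3 higher, and 10 were not called; the median was 0.04. With total-count scaling 10 were lower and 11 higher (median 0.18). The surface metalloreductases also moved both ways. FRE7 had 1.38 ± 0.968 in the snf2 deletion and 15.99 ± 1.55 in WT (-2.90 ± 0.29), and FRE1, the main iron and copper reductase, fell by 1.29 ± 0.20, while FRE4, a reductase for siderophore iron, rose to 23.5 ± 1.72, against 5.22 ± 0.782 in WT (1.98 ± 0.11). Of 14 genes of metalloreductases and copper 6 were called lower and 2 higher, against 3 and 3 with total-count scaling.

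Aft1, the factor known to induce the iron regulon, binds TGCACCC. These letters were in 1.46% of all windows, in 13 of the 23 windows of the iron list and in 7 of the 121 windows of genes called lower at least 2-fold. The windows of SIT1 (chrV:27257-27556, plus strand) and ARN1 (chrVIII:21072-21371, minus strand) are shown as those of the transporter genes that fell most clearly; the capitals mark the match, on the opposite strand (GGGTGCA) in SIT1.
SIT1: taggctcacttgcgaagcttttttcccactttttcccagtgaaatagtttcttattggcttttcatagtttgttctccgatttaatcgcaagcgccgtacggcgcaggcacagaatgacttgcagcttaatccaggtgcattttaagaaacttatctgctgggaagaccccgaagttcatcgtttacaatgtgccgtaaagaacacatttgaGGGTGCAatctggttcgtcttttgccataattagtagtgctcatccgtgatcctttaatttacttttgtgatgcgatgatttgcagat
ARN1: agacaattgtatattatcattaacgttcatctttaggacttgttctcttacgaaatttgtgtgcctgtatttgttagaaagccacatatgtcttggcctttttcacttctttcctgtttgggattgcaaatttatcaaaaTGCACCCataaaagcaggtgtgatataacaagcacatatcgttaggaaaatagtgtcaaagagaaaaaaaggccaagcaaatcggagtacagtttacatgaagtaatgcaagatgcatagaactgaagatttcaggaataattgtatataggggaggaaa

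Most drug export genes fell. Of 10 genes of the pleiotropic drug response, 8 were called lower and 1 higher, with a median log2 fold change of -0.75. PDR5, the main ABC drug pump, had 272, 268 and 468 scaled CPM in the snf2 deletion libraries and 1321, 1200.2 and 1328 in the WT libraries (-1.98 ± 0.18, limma adjusted p = 1.63e-05); replicate 3 of the deletion was the highest of its group and still far below every WT library. RSB1, a sphingoid base transporter, had 0.850 ± 0.189 in the snf2 deletion and 14.2 ± 1.88 in WT (-3.03 ± 0.16), and TPO1, a polyamine transporter, 15.1 ± 0.720 in the snf2 deletion and 77.9 ± 9.42 in WT (-2.28 ± 0.10). PDR1, which encodes the regulator of these pumps, was the member called higher (0.19 ± 0.06), a call lost without replicate 1 or 2 of the snf2 deletion or replicate 2 or 3 of WT (highest adjusted p 0.134). Of 14 drug and proton antiporter genes, 6 were called lower and 2 higher, with a median of -0.32: beside QDR2 and AZR1 these included TPO2, a polyamine exporter (-2.06 ± 0.35), and FLR1, a fluconazole transporter (-0.67 ± 0.11). The Pdr1 and Pdr3 letters CCGCGG were in 2.45% of all windows and in 3 of the 10 of this list. They were in 10 of the 121 windows of genes called lower at least 2-fold and in 6 of the 114 of genes called higher at least 2-fold. The PDR5 window (chrXV:619440-619739, plus strand) holds 1 match, in capitals, and is shown as that of the best-known target of these factors.
PDR5: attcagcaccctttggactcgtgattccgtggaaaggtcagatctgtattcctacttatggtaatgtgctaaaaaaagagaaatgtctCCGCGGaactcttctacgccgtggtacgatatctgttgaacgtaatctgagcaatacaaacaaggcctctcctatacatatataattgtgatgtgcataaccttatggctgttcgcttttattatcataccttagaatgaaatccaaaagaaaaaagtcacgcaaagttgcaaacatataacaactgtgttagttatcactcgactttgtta

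HO, the endonuclease that starts mating-type switching and the gene through which SWI mutants were found, had 7.23, 9.55 and 8.73 scaled CPM in the snf2 deletion libraries, against 162, 154 and 176 in the WT libraries (-4.12 ± 0.13, limma adjusted p = 2.84e-09). The highest deletion library was far below the lowest WT library. HO is one of the 15 lowest genes, which were taken only without overlap between the groups. ASH1, which encodes a repressor of HO in daughter cells, fell by 1.23 ± 0.09. Of 15 genes of cyclins, inhibitors and daughter-cell separation, 7 were called lower and 1 higher, with a median log2 fold change of -0.14, or -0.00 with total-count scaling. The mitotic cyclin gene CLB1 fell by 1.38 ± 0.14, EGT2, which helps cells part after division, by 0.99 ± 0.10 and the G1 cyclin gene CLN2 by 0.53 ± 0.09. CLN3, the cyclin upstream of CLN2, was higher (0.61 ± 0.09).

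Mating genes of MATa cells fell. Of 7 genes known for their expression in MATa cells, 6 were called lower and 0 higher (median -0.85). AGA2, the adhesion subunit of a-agglutinin, had 147, 160.3 and 148 scaled CPM in the snf2 deletion libraries and 408, 449.8 and 406 in the WT libraries (-1.47 ± 0.11, limma adjusted p = 1.99e-06). BAR1, a protease that degrades alpha factor, fell by 1.06 ± 0.09, and MFA2, a gene for the a-factor pheromone, was lower too (-0.85 ± 0.07). Of 27 genes of pheromone signalling and response 12 were called lower and 3 higher, with a median of -0.21. Among them were the kinase gene FUS3 (-1.09 ± 0.12), FAR1, which arrests the cycle before mating (-1.09 ± 0.06), and SST2, which shuts off the G-protein signal (-1.07 ± 0.07). Of 4 markers of the other mating type 3 were higher, at low levels. STE3, the a-factor receptor of alpha cells, had 8.87, 9.74 and 9.88 in the snf2 deletion libraries and 1.87, 0.962 and 1.86 in the WT libraries (2.05 ± 0.17), and MF(ALPHA)2, a minor alpha-factor gene, 2.61 ± 0.838 in the snf2 deletion and 0.452 ± 0.183 in WT (1.29 ± 0.19). MF(ALPHA)1, the main alpha-factor gene, was also called higher, a call lost without replicate 2 or 3 of the snf2 deletion or any 1 replicate of WT (highest adjusted p 0.146), and not made by DESeq2. SAG1, the alpha-agglutinin gene, did not pass the test (-0.05 ± 0.06, adjusted p = 0.595). The summed level of the 4 markers was 85.5 to 95.2 scaled CPM in the snf2 deletion libraries and 77.3 to 83.5 in the WT libraries. By the levels above, STE3 and MF(ALPHA)2 were a small part of this sum. Most of it came from SAG1 and MF(ALPHA)1. Whether some cells of the other type, or more of this RNA per cell, gave these values was not tested.

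Ste12, the factor known to activate mating genes, binds TGAAACA. The letters were in 7.31% of all windows, in 6 of the 7 windows of the MATa-specific genes and in 17 of 27 of the pheromone list. AGA2 (chrVII:436934-437233, minus strand) is shown because it had the largest fall of the 7 and holds 2 matches (TGTTTCA, the reverse complement) on this strand.
AGA2: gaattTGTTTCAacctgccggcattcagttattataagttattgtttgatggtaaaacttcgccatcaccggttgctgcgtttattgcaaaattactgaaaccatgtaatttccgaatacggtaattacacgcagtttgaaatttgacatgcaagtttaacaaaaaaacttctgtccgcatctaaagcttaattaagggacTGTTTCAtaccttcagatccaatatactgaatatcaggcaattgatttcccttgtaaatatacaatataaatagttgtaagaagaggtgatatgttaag

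Glycolysis genes were mostly lower: of 17 glycolysis genes 11 were called lower and 1 higher (median -0.39). CDC19, the pyruvate kinase gene, had 5772, 5284 and 6479.6 scaled CPM in the snf2 deletion libraries and 13141, 13082 and 12915 in the WT libraries (-1.16 ± 0.09, limma adjusted p = 2.20e-06). ENO2, an enolase gene, had 5276, 4731 and 5318 in the snf2 deletion libraries and 11203, 10564 and 10935 in the WT libraries (-1.09 ± 0.07), and PGI1, phosphoglucose isomerase, fell by 0.90 ± 0.06. GCR1, an activator of glycolytic genes, was lower as well (-0.50 ± 0.06). ENO1, the other enolase gene, was the exception, with 1319.7, 1086 and 1399 in the snf2 deletion libraries and 609, 542 and 463 in the WT libraries (1.24 ± 0.27); ENO1 and ENO2 are near-identical, and reads may be split between them. Of 12 hexose transporter genes, 4 were called higher and 2 lower, counting HXT6 and HXT7, near-identical copies whose reads are uncertain; the call of HXT7 was lost without replicate 2 or 3 of the snf2 deletion or replicate 1 or 2 of WT (highest adjusted p 0.125). HXT3, a low-affinity glucose transporter, fell to 374 ± 101, against 1295 ± 147 in WT (-1.82 ± 0.29), and the seldom-used transporter genes HXT17, HXT11 and HXT9 rose, at low levels (1.30, 1.28 and 0.87). MTH1, a corepressor of HXT genes, fell by 1.62 ± 0.08.

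At the branch from pyruvate, 3 of 15 genes were called higher and 3 lower. PDC6, the minor pyruvate decarboxylase, had 14.3, 18.2 and 18.6 scaled CPM in the snf2 deletion libraries, against 0.937, 1.44 and 1.44 in the WT libraries (2.99 ± 0.22, limma adjusted p = 2.18e-06), and the major isozyme gene PDC1 fell by 0.34 ± 0.07. Genes used for growth on non-fermentable carbon rose: 12 of 20 genes for making glucose, for the glyoxylate shunt and for using acetate were called higher and 0 lower (median 0.54). ADH2, the alcohol dehydrogenase that oxidises ethanol, had 24.2, 25.3 and 22.97 in the snf2 deletion libraries and 2.21, 2.88 and 2.89 in the WT libraries (2.79 ± 0.16, adjusted p = 4.57e-07); its sequence is close to that of ADH1. Adr1, known to activate ADH2, had its own gene higher (1.16 ± 0.13), as did the carrier SFC1, which brings succinate into mitochondria (1.28 ± 0.18), and ICL1, isocitrate lyase of the glyoxylate cycle (0.52 ± 0.08).

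Of 40 genes of the respiratory chain and ATP synthase, 20 were called higher and 0 lower (median 0.34), and 33 with total-count scaling. The changes were small: ATP5, a stalk subunit of ATP synthase, had 230.2 ± 19.3 scaled CPM in the snf2 deletion and 158 ± 3.03 in WT (0.54 ± 0.08), and the cytochrome oxidase subunit gene COX5A 229 ± 19.99 in the snf2 deletion and 155 ± 7.12 in WT (0.55 ± 0.08). The TCA cycle had 3 of 20 called higher and 0 lower (10 and 0 with total-count scaling), led by the isocitrate dehydrogenase subunit IDH1 (1.03 ± 0.21). That share of 15% higher was near the 13.6% of all genes. AAC1, an ADP/ATP carrier gene, rose by 1.64 ± 0.11. SUC2, the invertase gene for which SNF mutants were named, did not pass the test, with 128, 139 and 132 in the snf2 deletion libraries and 119, 122 and 125 in the WT libraries (0.12 ± 0.07, limma adjusted p = 0.221). Of 10 genes of sucrose and maltose use 4 were called higher and 0 lower, among them the maltase gene MAL32 (0.92 ± 0.13), and of 8 galactose genes 3 were higher and 2 lower, with GAL7, galactose-1-phosphate uridyltransferase, at 0.98 ± 0.18.

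Most cell wall genes that were called were lower. Of 16 covalently linked and structural wall proteins 5 were called lower and 0 higher, with a median log2 fold change of -0.14, or -0.00 with total-count scaling. SED1, an abundant wall protein, had 1819.8, 1292 and 1404 scaled CPM in the snf2 deletion libraries and 6278, 5815 and 5276 in the WT libraries (-1.95 ± 0.19, limma adjusted p = 2.56e-05). TIP1, a cold-induced mannoprotein, had 49.5, 116 and 128 in the snf2 deletion libraries and 577, 882 and 853 in the WT libraries (-3.05 ± 0.32), with replicate 1 the lowest library in both groups and no overlap between the groups. Of 8 mannoprotein genes that are induced without oxygen 4 were lower and 1 higher (median -0.66). TIR1 had 7.31, 7.60 and 7.84 in the snf2 deletion libraries and 125, 113 and 148 in the WT libraries (-3.91 ± 0.21), and TIR3 fell by 2.03 ± 0.14, while TIR2 was higher (0.43 ± 0.09). Among 24 genes of glucan and chitin 12 were lower and 4 higher (median -0.27; 7 and 7 with total-count scaling), with the exoglucanase EXG1 at -1.13 ± 0.07 and the glucanase-like SCW4 at -0.87 ± 0.07; the transglycosylase CRH1 was among those higher (0.66 ± 0.08).

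Of 22 targets of the stress factors Msn2 and Msn4, 3 were called higher and 2 lower, a share near that of all genes, with a median of 0.08; CTT1, cytosolic catalase, rose to 60.6 ± 8.27 scaled CPM, against 25.9 ± 3.89 in WT (1.20 ± 0.22), and MSN4 itself was lower (-0.75 ± 0.07). HSP12, a membrane-protecting stress protein, was not called, and had 175, 161 and 154 in the snf2 deletion libraries and 136, 46.7 and 42.8 in the WT libraries (1.31 ± 0.52, limma adjusted p = 0.0842), with WT replicate 1 far above the other WT libraries and closest to the deletion. None of 17 trehalose and glycogen genes was called, whether by limma, by DESeq2 or by the quasi-likelihood test of edgeR; 2 had an unadjusted limma p below 0.05, and total-count scaling called 2 higher. NTH2, a neutral trehalase gene, had the smallest p (0.29 ± 0.13, adjusted p = 0.117). Of 22 heat shock chaperone genes 3 were lower, led by SSB1, a ribosome-bound chaperone (-0.60 ± 0.14), and 0 higher. That share of 13.6% lower was near the 14.1% of all genes, and the median was 0.15. Of 18 genes against peroxide and nitrosative stress 8 were called lower and 1 higher (5 and 3 with total-count scaling). Besides YHB1, which had 47.7, 54.5 and 49.8 in the snf2 deletion libraries and 695, 755 and 805 in the WT libraries, these were led by GPX2, a glutathione peroxidase gene, with 13.1 ± 1.07 in the snf2 deletion and 113 ± 5.42 in WT (-3.01 ± 0.12), and SOD1, cytosolic superoxide dismutase (-0.69 ± 0.09).

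Nitrogen genes included some of the strongest single changes. PUT4, the proline permease, had 31.9, 25.2 and 37.04 scaled CPM in the snf2 deletion libraries and 5.79, 4.01 and 4.33 in the WT libraries (2.50 ± 0.16, limma adjusted p = 8.85e-07). CAR2, ornithine aminotransferase of arginine breakdown, had 15.04, 12.7 and 14.3 in the snf2 deletion libraries and 186, 111 and 129 in the WT libraries (-3.22 ± 0.30, adjusted p = 1.84e-05). Of 18 amino acid permeases 3 were called higher and 6 lower, with a median log2 fold change of -0.13, or 0.01 with total-count scaling: GAP1, the general permease, rose by 1.23 ± 0.12, whereas AGP1, a broad-range permease, fell by 1.57 ± 0.10 and TAT1, for tyrosine and valine, by 1.37 ± 0.12; TAT1 overlaps a non-coding RNA gene, so its reads are uncertain. Of 15 genes of glutamate and ammonium 3 were called higher and 0 lower, with a median log2 fold change of -0.09, or 0.05 with total-count scaling. That is 20% called, below the 27.7% of all genes called in either direction. Among the 3 were the glutamate dehydrogenase gene GDH1 (1.12 ± 0.15) and the glutamine synthetase gene GLN1 (0.86 ± 0.12). Of the biosynthetic lists, 3 of 7 genes of the Gcn4 pathway and asparagine, 3 of 9 of lysine and 2 of 6 of histidine were called lower and 0 higher, and of 17 aromatic amino acid genes 4 were lower and 2 higher (3 and 5 with total-count scaling). The shares called in these 4 lists were 42.9, 33.3, 33.3 and 35.3%, against 27.7% of all genes. ASN1, asparagine synthetase, had 264, 313 and 308 in the snf2 deletion libraries and 939.8, 985 and 1023 in the WT libraries (-1.74 ± 0.20), LYS20, homocitrate synthase of lysine synthesis, fell by 1.82 ± 0.26, HIS4 by 0.94 ± 0.21 and ARO1, of aromatic amino acid synthesis, by 0.85 ± 0.07.

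Genes of leucine, isoleucine and valine split, 3 of 12 called higher and 2 lower. LEU1, isopropylmalate isomerase, which acts just before the enzyme that LEU2 encodes, had 557, 556 and 578 scaled CPM in the snf2 deletion libraries, against 176, 182 and 174 in the WT libraries (1.66 ± 0.19, limma adjusted p = 9.21e-05). OAC1, a mitochondrial carrier of isopropylmalate, rose by 1.06 ± 0.19, and the mitochondrial aminotransferase gene BAT1 by 0.77 ± 0.16. BAT2, the cytosolic aminotransferase, fell to 121 ± 4.43, against 507 ± 12.3 in WT (-2.06 ± 0.13). In the other strains LEU1 averaged 331 ± 124 in the snf5 deletion, where LEU2 stood at 74.7 ± 16.1, and 677 ± 85.04 in the swp82 deletion, where LEU2 had 0 reads in every library. LEU1 averaged highest in the snf2 and swp82 deletions, where LEU2 had 0 reads. Its mean of 331 in the snf5 deletion, where LEU2 had reads, also lay above the WT libraries (174 to 182). The part of LEU2 in these values was not tested. The motif of Leu3, the factor that answers to isopropylmalate, was in 0.178% of all windows and in 3 of the 12 of this list; the LEU1 window (chrVII:478753-479052, minus strand) is shown with its match in capitals.
LEU1: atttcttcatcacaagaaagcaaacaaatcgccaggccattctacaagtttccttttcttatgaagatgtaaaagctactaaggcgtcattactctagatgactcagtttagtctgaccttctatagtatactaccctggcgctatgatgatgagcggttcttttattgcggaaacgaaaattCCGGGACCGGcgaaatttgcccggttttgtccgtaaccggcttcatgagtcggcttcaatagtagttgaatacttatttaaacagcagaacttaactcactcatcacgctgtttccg

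Vitamin and lipid genes gave smaller sets. Of 12 genes of biotin and NAD 6 were called higher and 0 lower (median 0.33), with BNA2, the first enzyme from tryptophan to NAD, at 1.68 ± 0.15 (it overlaps another annotated gene, which makes its reads uncertain), and BIO5, a transporter for a biotin precursor, at 1.22 ± 0.13. Thiamine and vitamin B6 genes were higher in 8 of 24 cases and lower in 2; THI4, which makes the thiazole part, rose by 1.06 ± 0.11, and reads of several other THI genes are uncertain because of near-identical copies. In lipid synthesis CHO2, the first methyltransferase of phosphatidylcholine synthesis, fell to 84.1 ± 3.18 scaled CPM, against 236 ± 14.1 in WT (-1.48 ± 0.07), and HMG1, a reductase of the sterol pathway, by 0.95 ± 0.07. INO1, inositol phosphate synthase and a known SWI/SNF target, was higher (0.57 ± 0.12, limma adjusted p = 0.00561).

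Histone genes rose in 6 of 10 cases and fell in 0, with a median of 0.41. The H4 gene HHF1 had 1291, 1336 and 1306 scaled CPM in the snf2 deletion libraries and 794, 779.7 and 772 in the WT libraries (0.74 ± 0.06, limma adjusted p = 2.65e-06), and the H3 gene HHT1 1275, 1274 and 1289 in the snf2 deletion libraries and 834, 833 and 864 in the WT libraries (0.60 ± 0.07). Every deletion library lay above every WT library in both. The groups did not overlap, in either direction, in 52.9% of all tested genes. Histone genes come in copies of near-identical coding sequence, between which reads may be split. None of the 11 other SWI/SNF subunit genes was called by limma, and 2 had an unadjusted p below 0.05; edgeR's quasi-likelihood test and DESeq2 called 1 each, and total-count scaling called 6 higher. SNF6, which the label of the deletion tags, had the smallest p (132, 130.0 and 140.2 in the snf2 deletion libraries and 113, 120.4 and 112 in the WT libraries; 0.22 ± 0.08, adjusted p = 0.0521). Of 14 subunits of the related remodeler RSC 1 was higher and 1 lower (6 and 0 with total-count scaling), and of 18 genes of other remodelers 2 were higher and 1 lower (10 and 1): IES6, an INO80 subunit, rose by 0.85 ± 0.09 and the remodeler gene CHD1 fell by 0.44 ± 0.05.

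Cytosolic ribosomal protein genes were lower almost throughout, by a modest amount: 122 of 137 were called lower and 2 higher, with a median log2 fold change of -0.33. With total-count scaling the median was -0.19 and 82 were called lower. RPL8A had 577, 574 and 555 scaled CPM in the snf2 deletion libraries and 847, 940.4 and 964 in the WT libraries (-0.69 ± 0.07, limma adjusted p = 2.34e-05), RPL22B fell by 0.73 ± 0.08 and RPP1A, of the ribosomal stalk, by 0.42 ± 0.05. The 2 exceptions were RPS23A (0.66 ± 0.09) and RPL15B (0.30 ± 0.06); many genes of this family come in near-identical pairs between which reads may be split. Of 53 genes for making ribosomes 1 was called lower and 0 higher, with a median of -0.20, and of 54 mitochondrial ribosomal protein genes 4 were higher and 3 lower.

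Of 32 proteasome genes 6 were called higher and 0 lower, with a median of 0.10 and the core subunit PRE7 at 0.44 ± 0.05. Of 37 autophagy genes 8 were higher and 0 lower (median 0.21), with the receptor gene ATG39 at 1.30 ± 0.28. The shares called higher, 18.8% and 21.6%, lie above the 13.6% of all genes called higher. They lie below the 27.7% called in either direction. Only 2 of the proteasome and 3 of the autophagy calls were kept without any 1 library, and total-count scaling called 23 and 16 higher. Meiosis and sporulation genes, silent in growing haploids as a rule, were higher in 8 of 15 cases and lower in 1, at low levels: REC8, the meiotic cohesin, had 5.92 ± 0.587 scaled CPM in the snf2 deletion and 2.23 ± 0.171 in WT (2.66 times the WT mean, limma adjusted p = 0.000364).

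**Figure D4:**
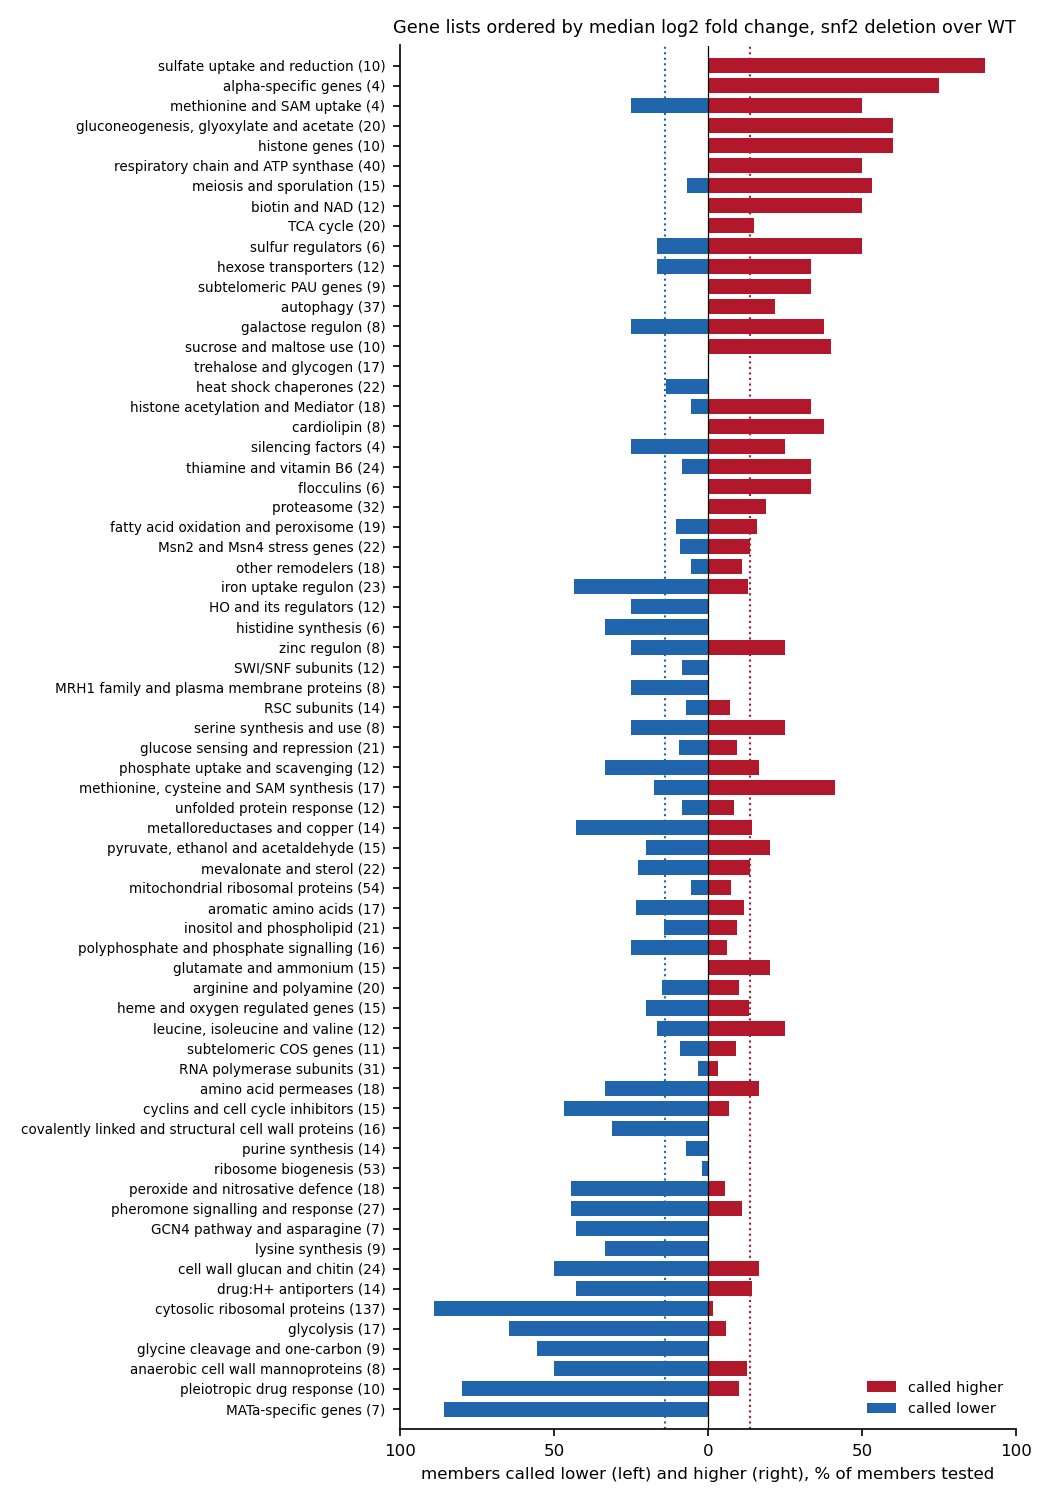
Share of tested members called lower (blue, to the left) and higher (red, to the right) in the snf2 deletion for 68 gene lists, with the number tested in parentheses, ordered by median log2 fold change from highest at the top. Dotted lines mark the shares over all genes, 14.1% lower and 13.6% higher; sulfate genes stand near the top and glycine cleavage, drug response and MATa genes near the bottom.

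Over the 68 lists, 46 had a larger share of members called than the 27.7% of all genes, and 1 had no member called. The lists were chosen with earlier results of these data known and share some genes, so this count describes the lists and not the genome. Under total-count scaling 21 medians changed sign, none of them farther than 0.13 from 0. Lists with few calls included the unfolded protein response (1 of 12 higher, PDI1 at 0.35, and 1 lower, HAC1 at -0.28), RNA polymerase subunits (1 of 31 in each direction) and purine synthesis (1 of 14 lower, ADE8 at -0.61).

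The snf2 deletion was also set directly against the snf5 deletion, which removes another subunit and, per the labels, has the same kinds of replacement and tag; LEU2 had reads in the snf5 deletion and 0 in the snf2 deletion. This contrast called 726 genes, 12.5% of those tested: 389 higher in the snf2 deletion (6.68%) and 337 lower (5.79%). SER3 stood out, with 1179.8, 1264 and 1252 scaled CPM in the snf2 deletion libraries, against 144, 122 and 149 in the snf5 deletion libraries (difference 3.15 ± 0.08 on the log2 scale, limma adjusted p = 3.58e-10). FMP48 averaged 68.4 ± 16.9 in the snf2 deletion and 9.55 ± 4.01 in the snf5 deletion (2.76 ± 0.31, adjusted p = 0.000587), and PDC6 17.03 ± 2.37 in the snf2 deletion and 5.68 ± 0.804 in the snf5 deletion (1.43 ± 0.22, adjusted p = 0.00307). The cell wall gene SED1 was higher, at 1505 ± 278 in the snf2 deletion and 294 ± 63.9 in the snf5 deletion (2.36 ± 0.19), and HSP12 stood at 163 ± 10.7 in the snf2 deletion and 2.11 ± 0.786 in the snf5 deletion (5.76 ± 0.52, adjusted p = 0.000124). PHO84, MET3, SUL2, HO, TIR1, SIT1 and AGA2 did not pass this test, with differences of -0.14 ± 0.18, -0.25 ± 0.09, 0.32 ± 0.14, 0.31 ± 0.13, 0.06 ± 0.21, -0.46 ± 0.17 and 0.04 ± 0.11, which does not show that the strains act alike there.

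By list, the snf2 deletion was lower than the snf5 deletion in 56 of 137 ribosomal protein genes and higher in 0 (median difference -0.22). It was higher in 16 of 40 respiratory genes and lower in 1 (0.29), higher in 9 of 22 Msn2 and Msn4 targets and lower in 0 (0.75), and higher in 5 of 10 histone genes and lower in 1 (0.31), while sulfate genes gave 0 higher and 1 lower of 10 (-0.15). HHF1 averaged 1311 ± 22.6 scaled CPM in the snf2 deletion and 737 ± 37.4 in the snf5 deletion (0.83 ± 0.06, limma adjusted p = 1.50e-05). The snf5 deletion libraries varied more, with correlations of 0.975 to 0.993 between replicates. The count of 726 was 225 when the 2 strains were fitted alone, 322, 349 or 375 without replicate 1, 2 or 3 of the snf2 deletion, and 482 without replicate 2 of the snf5 deletion.

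The swp82 deletion, which like the snf2 deletion had no LEU2 reads, differed from it at 2533 genes, 43.5% of those tested, with 21.7% higher and 21.8% lower in the snf2 deletion. SER3 averaged 1232 ± 45.5 scaled CPM in the snf2 deletion and 87.9 ± 0.822 in the swp82 deletion (difference 3.79 ± 0.08), and MET3 497 ± 28.8 in the snf2 deletion and 61.2 ± 1.30 in the swp82 deletion (3.00 ± 0.09). PHO84 averaged 0.553 ± 0.172 in the snf2 deletion, 7.07 ± 2.12 in the swp82 deletion and 95.7 ± 14.1 in WT. LEU1 did not pass the test between these strains (-0.26 ± 0.19, limma adjusted p = 0.294). All contrasts of one strain with WT share the same 3 WT libraries, so no overlap between them is given.

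The authors also deposited a list of 506 genes, chosen on these samples and so no independent evidence, of which 463 were tested here and 360 called in the snf2 deletion against WT. In the authors' deposited table, means of 359 of its genes were at least 2-fold apart between the snf2 deletion and WT, 211 higher and 148 lower. Of the 243 genes called here with a change of at least 2-fold, 236 were in the list.

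**Figure D5:**
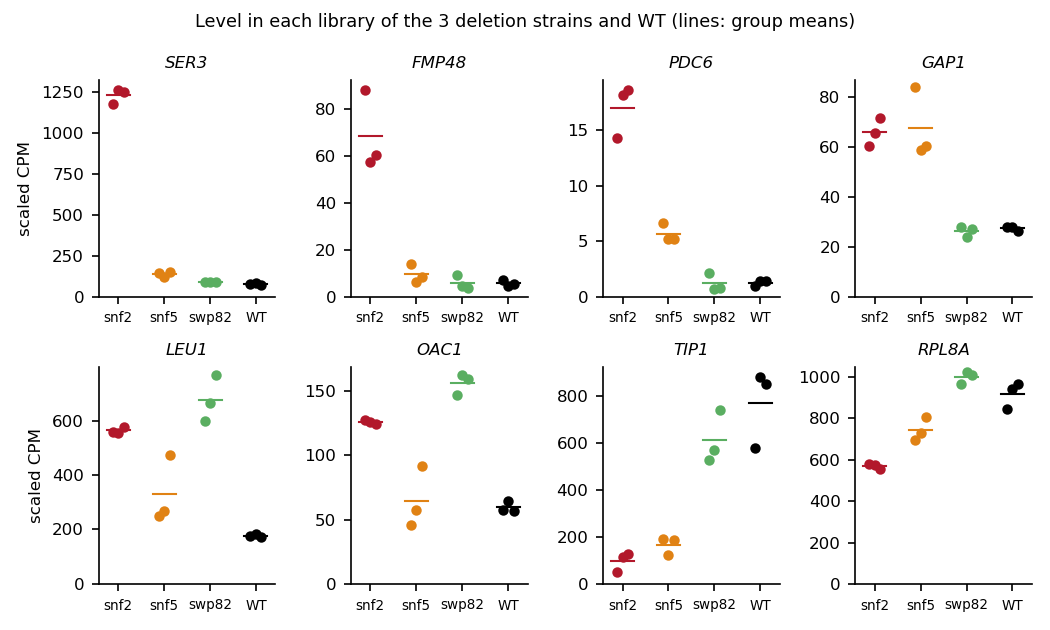
Level of 8 genes in each library of the snf2, snf5 and swp82 deletions and WT, in scaled CPM on linear axes that start at 0; points are libraries and lines group means. SER3, FMP48 and PDC6 are highest in the snf2 deletion, LEU1 and OAC1 are high in the snf2 and swp82 deletions, and RPL8A is lowest in the snf2 deletion.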

How the data were processed

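mRNA of 12 yeast libraries was measured by stranded RNA sequencing. Per the submitters' processing notes, tools named were TopHat2 2.0.10, Bowtie2 2.1.0 and edgeR 3.8.6 with the build sacCer3; the sources used here do not say how strand and multiply mapped reads were counted. The authors' deposited signal is CPM divided by a TMM factor, as its values show: all were whole reads within a tolerance of 0.05. Since the unit is a scaled signal, the test was limma 3.58.1 (R 4.3.3, with a mean-variance trend) on log2(value + 1), with all 12 libraries sharing one estimate of the spread, strain as the only term, and genes dropped unless 3 libraries or more reached a value of 1. Counting intervals and floors cover counting error only, since the reads carry no molecular identifiers.

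Alternatives were pseudocounts of 0.1 and 5, no filter, total-count and upper-quartile scaling, only the libraries of the 2 strains compared, a replicate block, leaving out each library, and edgeR 4.0.16 and DESeq2 1.42.0 on the recovered reads. The fits were tested on simulated data. Promoter windows were read from R64 (UCSC's copy is sacCer3); 5685 of 5935 gene IDs matched its annotation and 250 did not.

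The genes and lists were chosen with earlier results of these data known. Named were SNF2, its neighbours and the subunit genes; the 15 called genes at each end of the fold changes that moved 2-fold or more, averaged 10 reads or more per library where higher and did not overlap between groups; up to 4 called members of each list with the smallest p; and list members that went against most of their list. BAT1, FET3, FTR1, FET5, HXT6, HXT7, HSP12, SUC2, SAG1, SAM4, HOM3 and the retrotransposon genes fall outside this rule and were chosen after their values were seen.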

Additional observations from a re-analysis of the deposited data

How the results depend on the processing

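Of 250 called genes followed under every alternative, 0 changed direction and 202 kept the call in every one. The call was lost by 40 without 1 library, 20 with total-count scaling, 3 with upper-quartile factors, 2 with the replicate block, 1 in DESeq2, 1 with a pseudocount of 5 and 0 in edgeR. Fitting only the libraries of the snf2 deletion and WT called 2475 genes, 1240 higher and 1235 lower, and the snf2 and snf5 deletions alone gave 225. Total-count scaling gave 1837 higher and 468 lower; upper-quartile factors gave 997 higher and 690 lower. Genes higher by at least 2-fold numbered 184 by DESeq2, 184 by edgeR's quasi-likelihood test and 62 with a pseudocount of 5. Leaving out each library in turn gave 1155 to 1367 called genes for the snf2 deletion against WT (571 to 656 higher, 584 to 711 lower, 110 to 125 and 122 to 124 by at least 2-fold), 322 to 908 against the snf5 deletion and 1787 to 2815 against the swp82 deletion. With a replicate block 1962 genes were called, 967 higher and 995 lower. Deviations of same-numbered snf2 deletion and WT libraries correlated at 0.4341, 0.3094 and 0.0139, and those of libraries with different numbers at -0.4493 to 0.2828. The labels state no batch shared by number, so the numbers were not taken as pairs. Whether same-numbered libraries share an effect was not tested. Genes that were not called changed sign near 0: with total-count scaling SNF11 stood at 0.0126, SNF12 at 0.0750, SNF5 at 0.137, SWI1 at 0.00153, SWP82 at 0.104 and SAG1 at 0.0909; with upper-quartile factors SNF5 at 0.0434 and SWP82 at 0.0105; in edgeR SNF5 at 0.00177. Without 1 library SNF5 ran from -0.0706 to 0.0428, SWP82 from -0.0776 to 0.0283 and ARP9 from -0.00197 to 0.0432. The causes were not tested. Precision is limited by 3 libraries per strain and, for genes near 1 scaled CPM, by some 10 reads per library.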

Other observations

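Ty retrotransposons, mobile elements that copy themselves through RNA, had many genes that were lower, more than the 14.1% of all genes. Of 46 gag-pol genes annotated in R64, 32 were tested; 18 were called lower, 13 of them by at least 2-fold, and 1 higher in the snf2 deletion than in WT, with a median log2 fold change of -0.58. Their summed level was 396, 464 and 435 scaled CPM in the snf2 deletion libraries, against 566, 640.3 and 614 in the WT libraries. YLR227W-B had 6.90, 5.56 and 5.16 in the snf2 deletion libraries and 29.8, 33.98 and 33.8 in the WT libraries (-2.29 ± 0.16), and YMR045C fell by 2.12 ± 0.12. The copies are near-identical, so reads of single elements are uncertain.

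Among genes within 10 kb of a chromosome end, 14 of 60 were called higher (23.3%) and 9 lower (15%), with a median log2 fold change of 0.007. Beyond 100 kb, 573 of 4281 were higher (13.4%) and 629 lower (14.7%). The tenth of all genes with the lowest levels had 25.95% called higher, and position was not tested apart from level. Of the 194 tested genes whose IDs did not match R64, 22 were called higher and 10 lower.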
